A study of Mus musculus with 57 samples.

Results

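NF-κB, the transcription factor best known for carrying inflammatory signals to the nucleus, is built from 5 related subunits and is held back by a set of inhibitor proteins. The subunits encoded by Rela, Rel and Relb carry an activation domain, whereas Nfkb1 and Nfkb2 encode precursors whose shorter products lack one and pair with the others. In a resting cell the inhibitors encoded by Nfkbia, Nfkbib and Nfkbie (IκBα, IκBβ and IκBε) keep the dimers in the cytoplasm. Lipopolysaccharide (LPS), the bacterial outer-membrane lipid sensed by Toll-like receptor signalling, leads to their phosphorylation and destruction, and the freed dimers then switch on genes that include some of their own inhibitors. Nfkbiz and Bcl3 encode IκB-type proteins that act in the nucleus as partners of the dimers. These 10 genes were taken by symbol from both count tables, where they were 10 of 53278 symbols in the LPS experiment and 10 of 50565 in the sex experiment, and all 10 passed the filter on low counts in both.

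The RNA came from CD11b-positive cells, called microglia in the labels, of mouse brain, and was poly(A)-selected and sequenced in bulk. Wild-type (WT) mice and littermates lacking P2RY12, a purine receptor of microglia (KO), were compared. The LPS experiment held 33 libraries, of which 8 were WT and 8 were KO with the treatment label ns, a term the labels do not define, and 9 were WT and 8 were KO from animals given LPS intraperitoneally at 1 mg per kg. The time from injection to collection is not given in the sources used here, nor are strain, the knockout allele or ages beyond adult. The sex experiment held 18 animals without LPS. They were 4 WT and 5 KO males and 4 WT and 5 KO females. Nothing in the labels says that libraries of a group came from separate animals in the LPS experiment, so the p-values measure the spread between these libraries.

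Total counts ran from 15.9 to 168.4 M counts per library in the LPS experiment (median 24.7 M) and from 58.5 to 318.5 M in the sex experiment, so counting error was small for these genes beside the spread between libraries. P2ry12 itself stood at 304.9 to 528.8 CPM (read counts scaled to a common library total) in KO and at 2748 to 5689 CPM in WT of the sex experiment. Library names in the labels of the LPS experiment hold, after a shared prefix, a first and a second number. Libraries with a first number of 1 to 4 and of 5 to 8 were grouped here as 2 sets, which the labels do not name. The second is called the library's number. The 4 WT libraries of number 2 went against their treatment label in P2ry12 and in Saa3, an acute-phase gene raised by LPS. They are called WT ns 1, WT ns 5, WT LPS 1 and WT LPS 6 after their labels, were left out of the comparisons and are shown apart. In that order they held 486, 964, 4707 and 9759 CPM of P2ry12 and 1801, 2589, 1.68 and 2.58 CPM of Saa3. The other WT ns libraries held 3810 to 5728 CPM of P2ry12 and 1.66 to 69.7 CPM of Saa3, the highest being WT ns 8. The other WT LPS libraries held 422.5 to 717 and 1454 to 6558 CPM. KO ns libraries held 615 to 910 CPM of P2ry12, so it did not tell them from WT LPS. WT LPS 8 and WT LPS 9 differed by little more than sampling noise (chi-square per degree of freedom 1.86, against 8.32 or more for every other pair) and were summed to 1 sample. In their whole profile 6 libraries stood apart, WT ns 5 and WT LPS 6, already left out, and WT LPS 7, KO ns 5, KO ns 6 and KO LPS 5. Their correlation to the median profile of the experiment was 0.698 to 0.843 against 0.932 to 0.977 elsewhere. They held 2.69% to 8.55% mitochondrial counts against 0.787% to 1.81%. The comparisons therefore rest on 28 samples (6 WT ns, 6 WT LPS, 8 KO ns, 8 KO LPS) and were repeated on the 24 that do not stand apart (6, 5, 6 and 7).

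The stretches upstream of Nfkbia, Nfkb2, Rel, Nfkbie and Bcl3 are shown because the family acts on its own genes, and because the genes that rose after LPS fell on both sides of a search for its binding motif. Promoters were taken from RefSeq (GRCm38.p6), 250 bases before each start, read on the gene's strand 5′ to 3′. They were matched for 7 of the 10 members, and Nfkb1, Relb and Nfkbiz had no entry. Capitals mark matches, on either strand, to the κB consensus or to the pattern GGANNTTCC, which can overlap each other.
Nfkbia (chr12:55492648-55492897, minus strand): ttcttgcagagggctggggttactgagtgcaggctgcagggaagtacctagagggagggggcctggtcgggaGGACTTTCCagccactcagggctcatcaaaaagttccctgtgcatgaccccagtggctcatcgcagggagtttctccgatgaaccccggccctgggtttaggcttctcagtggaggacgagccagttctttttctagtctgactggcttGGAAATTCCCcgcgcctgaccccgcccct
Nfkb2 (chr19:46304487-46304736, plus strand): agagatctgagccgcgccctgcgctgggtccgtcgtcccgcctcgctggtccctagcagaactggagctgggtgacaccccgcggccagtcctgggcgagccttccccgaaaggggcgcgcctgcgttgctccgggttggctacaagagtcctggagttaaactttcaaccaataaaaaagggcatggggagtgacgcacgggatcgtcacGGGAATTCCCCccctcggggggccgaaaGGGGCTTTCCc
Rel (chr11:23770970-23771219, minus strand): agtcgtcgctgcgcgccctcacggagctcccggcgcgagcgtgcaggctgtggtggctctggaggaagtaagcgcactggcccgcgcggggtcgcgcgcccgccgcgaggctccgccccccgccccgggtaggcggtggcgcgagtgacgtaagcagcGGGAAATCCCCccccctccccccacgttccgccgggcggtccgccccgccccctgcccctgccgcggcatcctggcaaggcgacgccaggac
Nfkbie (chr17:45555450-45555699, plus strand): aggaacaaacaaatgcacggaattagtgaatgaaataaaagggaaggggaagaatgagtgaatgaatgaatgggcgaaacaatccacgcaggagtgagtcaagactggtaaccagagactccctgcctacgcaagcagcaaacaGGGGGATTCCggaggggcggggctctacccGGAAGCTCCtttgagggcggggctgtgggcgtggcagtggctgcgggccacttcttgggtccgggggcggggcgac
Bcl3 (chr7:19822756-19823005, minus strand): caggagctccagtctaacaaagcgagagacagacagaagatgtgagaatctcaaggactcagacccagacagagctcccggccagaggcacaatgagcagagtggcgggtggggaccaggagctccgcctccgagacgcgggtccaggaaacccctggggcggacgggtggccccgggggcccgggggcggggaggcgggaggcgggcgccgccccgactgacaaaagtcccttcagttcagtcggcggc
Nfkbia held GGACTTTCC from 178 bases before the start and GGAAATTCCC from 29 bases before it. Nfkb2 held overlapping consensus matches from 39 bases and a further match from 11 bases before this start, and its 2 other listed starts held 1 marked stretch each. Rel had 1 marked stretch from 92 bases, and Nfkbie had 2, from 106 and 76 bases. None was found in the windows of Bcl3, Nfkbib and Rela. Among all 32851 promoters of this length, 7.25% held the consensus, 3.59% held GGANNTTCC and 9.18% held either. A match is a run of letters and does not show that the factor binds there.

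After LPS, 2 of the 5 subunit genes rose in both genotypes and the other 3 moved little. Differences are log2 fold changes with their standard error (SE) from edgeR's quasi-likelihood test on the 28 samples, with p-values adjusted by Benjamini-Hochberg over 16088 genes and a gene called at an adjusted p under 0.05. Values per library are CPM.

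Nfkb2 (chr19:46285478-46300839 in GRCm39), whose processed product pairs with the Relb protein in the slower, non-canonical branch, stood at 38.6 CPM in the lowest, 45.4 in the median and 67.2 in the highest WT ns library. In WT LPS libraries it stood at 94.97, 111.9 and 153 CPM. No WT LPS library overlapped a WT ns library. The increase was 1.34 ± 0.42 (SE, log2, adjusted p = 0.0157), a 2.54-fold rise, and its adjusted p was 0.0503 without WT LPS 5 (1.16). In KO it went from 5.68, 48.3 and 58.5 CPM to 12.1, 111.9 and 156 CPM, a rise of 1.53 ± 0.36 (SE, log2, adjusted p = 0.00202). Here the groups overlapped through KO LPS 5 alone, and without the libraries that stand apart the KO ns values ended at 58.5 CPM and the KO LPS values began at 92.1 CPM.

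Relb (chr7:19340142-19363352), the partner subunit of that branch, behaved alike in size. WT ns libraries ran from 22.98 through a median of 27.2 to 33.5 CPM, and WT LPS libraries from 43.4 through 60.6 to 75.1 CPM, with no overlap. The rise was 1.204 ± 0.37 in WT (SE, log2, adjusted p = 0.0135) and 1.21 ± 0.32 in KO (adjusted p = 0.00462). KO ns libraries ran from 4.5 through 28.3 to 35.1 CPM and KO LPS libraries from 6.02 through 63.1 to 76.2 CPM. KO LPS 5 was again the only KO LPS library within the KO ns range.

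Nfkb1 (chr3:135290416-135397422), the precursor of the most common partner of the Rela protein, had nearly the same median in all 4 groups. It stood at 250.1, 258 and 312.9 CPM in WT ns, at 159, 268 and 321.5 CPM in WT LPS, at 93.6, 274.8 and 304 CPM in KO ns, and at 57.6, 273 and 331 CPM in KO LPS. All ranges overlapped, and the lowest value of 3 groups belonged to a library that stands apart. The difference after LPS was 0.00 ± 0.26 in WT (SE, log2, adjusted p = 0.992) and 0.10 ± 0.22 in KO (adjusted p = 0.8). On the 24 samples its 95% interval was -0.08 to 0.27 in WT and -0.17 to 0.16 in KO.

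Rela (chr19:5686993-5698162), the subunit with the main activation domain of the classical dimer, went from 116.9, 126.9 and 190 CPM in WT ns to 41.1, 121 and 134 CPM in WT LPS. In KO it went from 29.9, 141 and 153 CPM to 9.73, 119.9 and 134.5 CPM. Ranges overlapped in both genotypes, and neither difference was called (WT -0.33 ± 0.38 SE, adjusted p = 0.539; KO -0.06 ± 0.33, adjusted p = 0.924). Over the 24 samples Rela fell in KO by 0.22 ± 0.09 (SE, log2, adjusted p = 0.0493), a call lost with RLE scaling (adjusted p = 0.0507), and in WT the value was -0.19 ± 0.10 (adjusted p = 0.117).

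Rel (chr11:23686847-23720969), which encodes c-Rel, the subunit prominent in blood-derived immune cells, stood at 77.9, 101 and 117 CPM in WT ns and at 71.4, 78.5 and 104.6 CPM in WT LPS. KO ns libraries stood at 64.3, 94.6 and 122 CPM and KO LPS libraries at 75.8, 86.1 and 159 CPM, the last being KO LPS 5. No call was made on the 28 samples (WT -0.25 ± 0.17 SE, adjusted p = 0.29; KO 0.03 ± 0.15, adjusted p = 0.907). With 24 samples Rel fell in both, by 0.34 ± 0.07 in WT (SE, log2, adjusted p = 0.000354) and by 0.17 ± 0.07 in KO (adjusted p = 0.0344), so that the KO value turned its sign. WT LPS 7 and KO LPS 5, both left out there, were the highest Rel libraries of their groups.

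**Figure D1:**
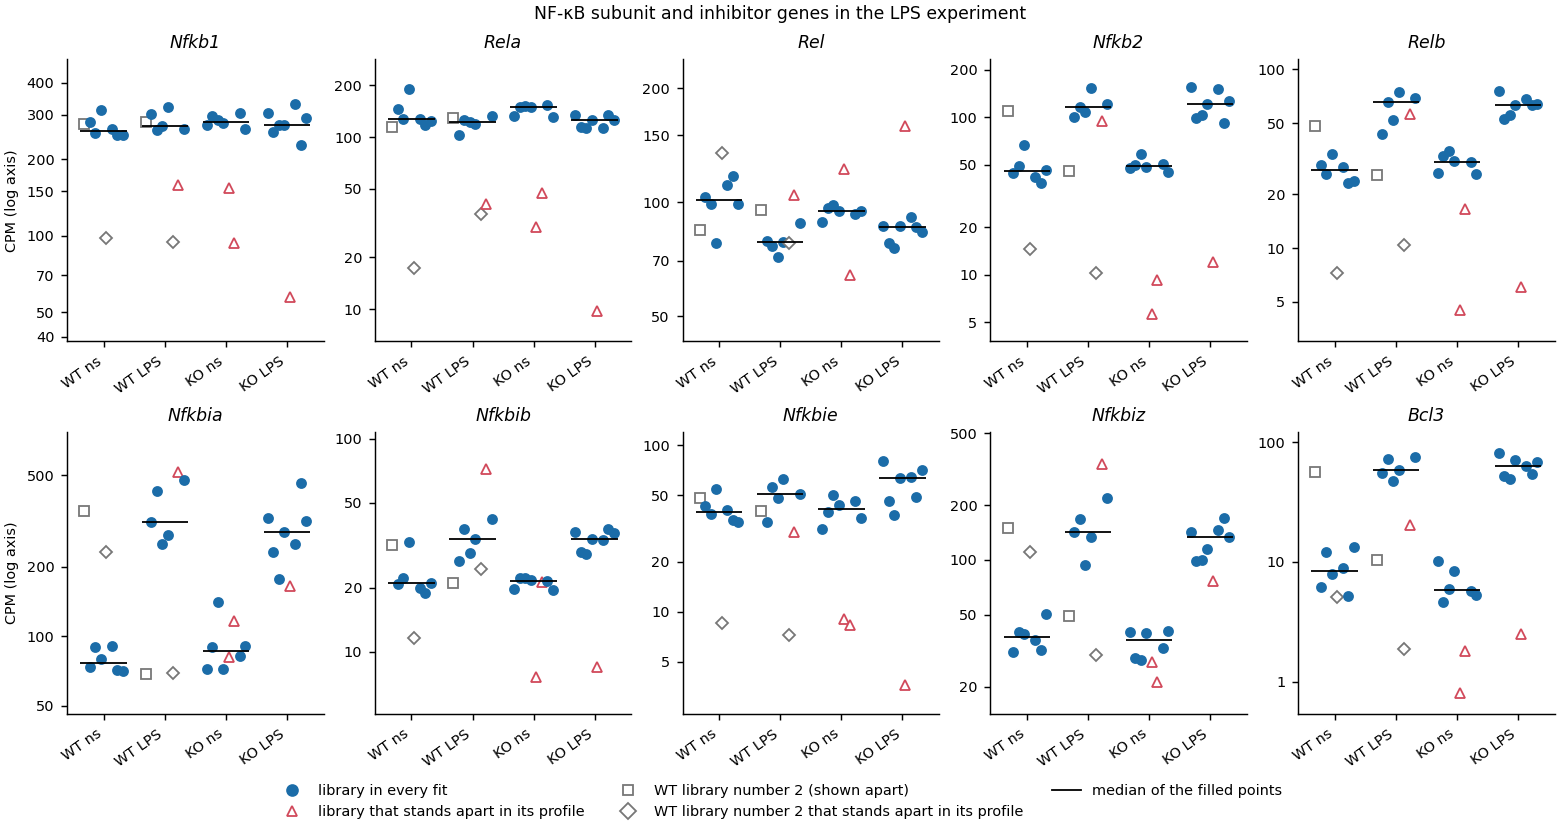
CPM (log axis) of each gene in every library of the LPS experiment, by group. Filled points are the libraries in every fit and the bar is their median; open symbols are WT libraries of number 2 and libraries that stand apart in their profile. Nfkb2, Relb, Nfkbia, Nfkbiz and Bcl3 separate LPS from ns among the filled points, whereas Nfkb1 does not.

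Among the classical inhibitors Nfkbia and Nfkbib were called higher in both genotypes. Nfkbia (chr12:55536194-55539432) encodes IκBα, the inhibitor that NF-κB itself induces to end its own activity. It stood at 70.5, 76.6 and 91.1 CPM in WT ns and at 252, 370.3 and 513.5 CPM in WT LPS. It stood at 72.2, 85.9 and 140.2 CPM in KO ns and at 165, 266.5 and 460.4 CPM in KO LPS. All LPS libraries lay above all ns libraries in both genotypes. The rise was 2.28 ± 0.23 in WT (SE, log2, adjusted p = 3.24e-08), which is 4.86-fold, and 1.59 ± 0.20 in KO (adjusted p = 5.39e-07), which is 3.01-fold.

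Nfkbib (chr7:28457676-28466069), which encodes IκBβ, changed less. WT ns libraries stood at 18.8, 20.98 and 32.8 CPM and WT LPS libraries at 26.7, 35.7 and 72.0 CPM, and KO ns libraries at 7.62, 21.3 and 22.3 CPM and KO LPS libraries at 8.49, 33.8 and 37.9 CPM. The groups overlapped in both genotypes. The rise was 0.89 ± 0.28 in WT (SE, log2, adjusted p = 0.0184) and 0.69 ± 0.24 in KO (adjusted p = 0.0342). These calls were near the threshold. The WT call was lost without WT LPS 7 (0.61, adjusted p = 0.0852) and without any 1 of WT ns 2, 6, 7 and 8 (adjusted p = 0.051 to 0.0635). The KO call was lost without any 1 of 20 libraries, which were KO LPS 1 to 4 and 6 to 8, KO ns 1, 3, 4, 5, 7 and 8, WT LPS 3 and 8, and WT ns 2, 3, 6, 7 and 8 (adjusted p = 0.0507 to 0.0864). Both were called on the 24 samples, at 0.59 ± 0.13 in WT (SE, log2, adjusted p = 0.000475) and 0.69 ± 0.12 in KO (adjusted p = 3.83e-05).

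Nfkbie (chr17:45866626-45874095), which encodes IκBε, stood at 34.8, 39.9 and 54.9 CPM in WT ns and at 29.9, 49.6 and 62.9 CPM in WT LPS. KO ns libraries stood at 8.27, 37.95 and 50.5 CPM and KO LPS libraries at 3.63, 56.4 and 80.2 CPM. All ranges overlapped and neither difference was called on the 28 samples (WT 0.24 ± 0.42 SE, adjusted p = 0.705; KO 0.72 ± 0.36, adjusted p = 0.148). It rose in KO on the 24 samples by 0.52 ± 0.17 (SE, log2, adjusted p = 0.0104), as it did without KO LPS 5 alone (0.89, adjusted p = 0.0135), and was 0.29 ± 0.18 in WT (adjusted p = 0.172). The difference between the genotypes in this response was itself not called (0.23 ± 0.24, adjusted p = 0.976).

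The nuclear IκB-type genes had the largest changes of the 10 beside Nfkbia. Nfkbiz (chr16:55631740-55659018) encodes IκBζ, an inducible partner needed for secondary inflammatory genes. WT ns libraries stood at 31.2, 37.8 and 50.4 CPM and WT LPS libraries at 93.4, 155 and 339 CPM, without overlap. KO ns libraries stood at 21.2, 30.8 and 40.8 CPM and KO LPS libraries at 76.2, 124 and 170 CPM, again without overlap. The rise was 2.28 ± 0.24 in WT (SE, log2, adjusted p = 6.64e-08) and 1.95 ± 0.21 in KO (adjusted p = 5.34e-08).

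Bcl3 (chr7:19542387-19556691), whose product binds homodimers of the subunits that lack an activation domain, had the largest fold change of the 10 in both genotypes. It went from 5.25, 8.43 and 13.4 CPM in WT ns to 20.2, 57.1 and 74.8 CPM in WT LPS, the lowest of these being WT LPS 7. In KO it went from 0.806, 5.49 and 10.3 CPM to 2.52, 58.7 and 81.2 CPM. WT groups did not overlap, and KO groups overlapped through KO LPS 5. The rise was 2.63 ± 0.50 in WT (SE, log2, adjusted p = 0.000253), 6.18-fold, and 3.44 ± 0.45 in KO (adjusted p = 1.53e-06), 10.9-fold. On the 24 samples it was 2.80 ± 0.23 and 3.24 ± 0.23 (SE, log2).

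**Figure D2:**
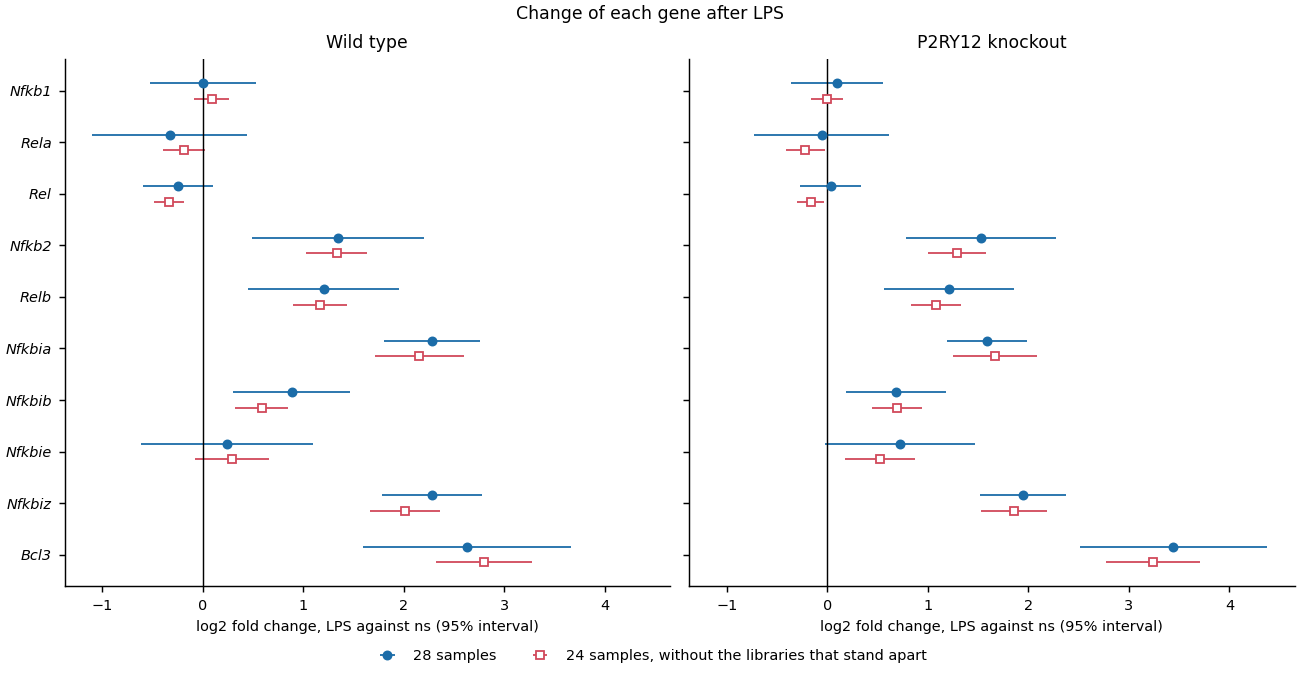
Log2 fold change after LPS of each gene in WT and KO, with its 95% interval. Circles are the 28 samples and squares the 24 without the libraries that stand apart. The intervals of Nfkb2, Relb, Nfkbia, Nfkbib, Nfkbiz and Bcl3 lie above 0 in each fit and genotype, and those of Nfkb1 include 0.

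In all, 6 of the 10 genes were called in WT and the same 6 in KO (Nfkb2, Relb, Nfkbia, Nfkbib, Nfkbiz, Bcl3), each of them higher. Of all genes tested, 30.7% were called in WT and 28.5% in KO, and 15.5% and 14.4% were called higher. The median log2 fold change of the 10 was 1.05 in WT and 0.97 in KO, against 0.03 and 0.01 over all genes. All LPS libraries lay above all ns libraries for 5 of the 10 in WT, where 10.8% of all genes did so, and for 2 in KO, where 3.62% did. On the 24 samples 7 were called in WT, 6 higher and 1 lower, against 26.3% of all genes higher and 27.8% lower. KO had 9 called there, 7 higher and 2 lower, against 26.3% of all genes higher and 28.4% lower, and all LPS libraries lay above all ns libraries for 5 members in WT (14.8% of all genes) and 6 in KO (15.9%). With all libraries as labelled, number 2 included, no member was called in WT by edgeR's quasi-likelihood test (lowest adjusted p = 0.107; 7 of the 10 had an unadjusted p under 0.05). In that fit 0% of all genes were called in WT, though 3605 had an unadjusted p under 0.05, and 5 members were called in KO, where 22.3% of genes were.

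The 2 sets drawn here from the library names hold replicates 1 to 4 and 5 to 9 of each group, and each set was also fitted alone. The first set called 7 members in WT (5 higher, with Rel and Rela lower) and 6 in KO, where 42.6% and 45.3% of all genes were called. The second called 2 in WT and 3 in KO, where 3.31% and 4.36% of all genes were called. Without its libraries that stand apart it called 8 and 7, against 25.5% and 24.8% of all genes. The libraries of the first set carried Ddx3y and those of the second Xist, so set and sex cannot be told apart.

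Markers of microglia and of other cells were read beside the share of all genes called after LPS, 30.7% in WT and 28.5% in KO. The called shares of the neutrophil and monocyte lists were under it. The summed level of 12 microglial markers ran from 24280 to 41740 CPM in WT ns and from 17130 to 26410 CPM in WT LPS, and from 34730 to 56570 CPM in KO ns and from 21720 to 27990 CPM in KO LPS. Of these 12, 8 were called lower in WT and 7 in KO. The 10 neutrophil markers summed to 1849 to 18910 CPM in WT ns, 2293 to 13720 in WT LPS, 1080 to 10370 in KO ns and 2022 to 4896 in KO LPS, with 1 called lower in WT and 1 higher in KO. The 8 monocyte markers summed to 239 to 2352 CPM in WT ns, 543 to 2950 in WT LPS, 152 to 1440 in KO ns and 373 to 884.5 in KO LPS, with 1 called each way in both genotypes. The 5 B cell markers fell, 4 of them in WT and 3 in KO, from 418 to 493.2 CPM to 85.2 to 169 CPM in WT and from 352 to 529 CPM to 123 to 221 CPM in KO. Of 6 border macrophage markers 3 were called lower in each genotype, from 249.7 to 701.8 CPM to 85.1 to 321.1 CPM in WT and from 180 to 585 CPM to 87.1 to 272 CPM in KO. Of 5 endothelial markers tested, 2 were called higher and 3 lower in WT, and 0 and 2 in KO. Of the 22 genes raised by tissue dissociation, 4 were called higher and 6 lower in WT, and 5 and 6 in KO. No microglial, neutrophil, monocyte or border macrophage marker was at 0 in any of these libraries. The part of these cells in the changes of the 10 genes was not tested, and in bulk RNA fewer cells of a type cannot be told apart from less RNA per cell.

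Of the 4 WT libraries of number 2, 3 were nearer the median of the opposite label for the 6 genes that rose, and WT ns 5 was so for 2 of them. WT ns 1 stood at 350 CPM for Nfkbia, 150.1 for Nfkbiz, 56.0 for Bcl3, 109 for Nfkb2, 48.1 for Relb and 31.6 for Nfkbib, within the WT LPS range for 6 of 6 genes. WT LPS 1 stood at 68.9 CPM for Nfkbia, 49.2 for Nfkbiz, 10.4 for Bcl3, 45.6 for Nfkb2, 25.7 for Relb and 21.1 for Nfkbib, within the WT ns range for 5 of 6 and under it for Nfkbia. WT ns 5 and WT LPS 6 also stand apart in their profile, and each lay within the range of the opposite label for only 1 of 6 genes. The low Nfkb2, Relb and Bcl3 of WT LPS 6 (10.3, 10.4 and 1.88 CPM) do not tell its label. KO LPS 5, which also stands apart, was low in them too (12.1, 6.02 and 2.52 CPM). WT LPS 6 was nearer the WT ns median for 6 of 6 genes (Nfkbia 69.4 CPM, Nfkbiz 30.0 CPM), and WT ns 5 was nearer the WT LPS median for 2 of 6, Nfkbia (231.5 CPM) and Nfkbiz (110.2 CPM).

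The libraries that stand apart were uneven across the 10 genes. In KO LPS 5, Rela stood at 9.73 CPM against a median of 125.6 CPM in the other KO LPS libraries, Relb at 6.02 against 63.1, Nfkb2 at 12.1 against 121 and Bcl3 at 2.52 against 62.8. Nfkbia there stood at 165 CPM against 282 and Rel at 159 against 85.7. In KO ns 5, Nfkb2 stood at 5.68 CPM against 49.1, Relb at 4.5 against 30.5, Bcl3 at 0.806 against 5.84 and Rel at 122 against 94.6. Rel was thus above its group's median in both libraries, and Bcl3, Rela, Relb and Nfkb2 were below it. In KO ns 6 and WT LPS 7 these last genes were below it as well, but other genes differed. Rel stood at 64.3 CPM against 94.6 in KO ns 6 and at 105 against 78.2 in WT LPS 7. Nfkbib (58.8% G and C) stood at 72.0 CPM against 33.7 in WT LPS 7, and Nfkbia at 117 against 85.9 in KO ns 6. The within-group SD of log2 CPM over the 28 samples was 1.12 for Bcl3, 0.86 for Rela and 0.29 for Rel, and over the 24 samples it was 0.39, 0.16 and 0.13. The exons of these genes differ in base composition, from 42.5% G and C in Rel and 44.9% in Nfkb1 to 59.4% in Rela and 62.7% in Bcl3. The correlation across genes of a library's deviation from its group median with G and C content was -0.715 to -0.457 in the libraries that stand apart and -0.427 to 0.711 in the others; the part of base composition was not tested.

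**Figure D3:**
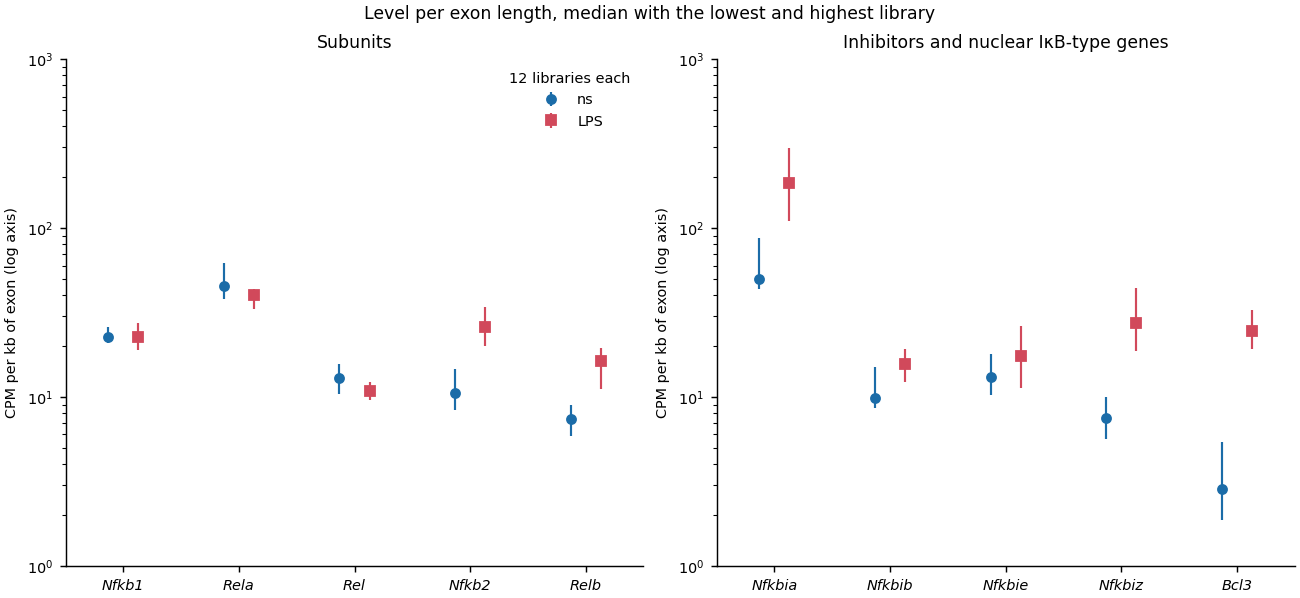
CPM per kb of annotated exon, all transcripts of a gene joined (log axis), of the subunit genes and of the inhibitor genes, for 12 ns and 12 LPS libraries. The order between genes depends on this length. Points are medians and lines reach from the lowest to the highest library. Nfkbia lies highest among the inhibitors in ns (50.3) and LPS (185), and Nfkb2 and Relb pass Rel after LPS.

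Levels were compared between genes only per exon length (GENCODE M21), in the 24 libraries that neither stand apart nor carry number 2 in WT. That length joins the annotated exons of all transcripts of a gene, 12061 bases for Nfkb1 and 3072 for Rela. A gene read mainly from shorter transcripts is put too low by it. The order of genes below, and whether their ranges overlap, therefore depends on this choice of length, and other lengths were not tested. In ns libraries the subunits ordered as Rela (median 45.5 CPM per kb), Nfkb1 (22.8), Rel (13.0), Nfkb2 (10.5) and Relb (7.39). The ranges of Rela and Nfkb1, and of Nfkb1 and Rel, did not overlap, whereas Rel and Nfkb2, and Nfkb2 and Relb, overlapped. In LPS libraries the order was Rela (40.4), Nfkb2 (25.8), Nfkb1 (22.7), Relb (16.3) and Rel (10.9), with every neighbouring pair overlapping in range, though Rela was above Nfkb2, Nfkb1 above Relb and Relb above Rel in 12 of 12 libraries each, and Nfkb2 above Nfkb1 in 10 of 12. Rel thus went from the third place to the last.

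Among the inhibitors Nfkbia was far above the rest, with a median of 50.3 CPM per kb in ns libraries. Nfkbie (13.2), Nfkbib (9.81), Nfkbiz (7.53) and Bcl3 (2.87) followed. The ranges of Nfkbia and Nfkbie were apart, as were those of Nfkbiz and Bcl3. The other neighbours overlapped in range, though Nfkbie was above Nfkbib in 12 of 12 libraries and Nfkbib above Nfkbiz in 11 of 12. In LPS libraries Nfkbia stood at 185 CPM per kb, followed by Nfkbiz (27.5), Bcl3 (24.6), Nfkbie (17.5) and Nfkbib (15.6). Only Nfkbia was apart from its neighbour in range there. Nfkbiz exceeded Bcl3 in 6 of 12 libraries, so Nfkbiz and Bcl3 did not differ beyond their spread. Bcl3 exceeded Nfkbie in 12 of 12 libraries, and Nfkbie exceeded Nfkbib in 8 of 12. The gene with the lowest level in ns, Bcl3, was above both Nfkbie and Nfkbib after LPS.

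The loss of P2RY12 changed none of the 10 genes past the threshold in the LPS experiment. KO ns against WT ns, log2 fold changes ran from -0.82 (Bcl3, adjusted p = 0.57) to 0.24 (Nfkbia, adjusted p = 0.623), with 0 of 10 called by edgeR's quasi-likelihood test, none with an unadjusted p under 0.05, and 0 called by DESeq2. Of all genes 0.0932% were called there. KO LPS against WT LPS, they ran from -0.56 (Nfkbiz, SE 0.22, adjusted p = 0.633) to 0.19 (Rel, SE 0.16, adjusted p = 0.981), with 0 of 10 called by edgeR or DESeq2, 2 with an unadjusted p under 0.05 (Nfkbia and Nfkbiz), and 0.0746% of all genes called.

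Without the libraries that stand apart the differences narrowed. KO ns against WT ns, they ran from -0.42 to 0.22, their 95% intervals from -0.88 to 0.63, with 0 of 10 called where 0.348% of all genes were. KO LPS against WT LPS, they ran from -0.27 (Nfkbia) to 0.22 (Nfkbie), with intervals from -0.69 to 0.58, 0 of 10 called and 0.28% of all genes called. Nfkbiz moved there to -0.24 ± 0.16 (SE, log2, adjusted p = 0.597). With all libraries as labelled 0 of 10 were called in either comparison, where 0.114% and 0.126% of all genes were. The intervals leave room for differences of that size in both directions, so a missed threshold does not show that the genotypes were alike.

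The test of whether the LPS response differed between genotypes called 0 of the 10. The differences of responses (KO minus WT) ran from -0.69 ± 0.29 for Nfkbia (SE, log2, adjusted p = 0.772) to 0.81 ± 0.63 for Bcl3 (adjusted p = 0.774), and Nfkbia alone had an unadjusted p under 0.05. Of all genes 0% were called by edgeR's quasi-likelihood test, 708 with an unadjusted p under 0.05. On the 24 samples they ran from -0.49 ± 0.29 (Nfkbia) to 0.44 ± 0.30 (Bcl3), with 0 of 10 called where 0.00622% of all genes were. With all libraries as labelled 0 of 10 and 0% of all genes were called.

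**Figure D4:**
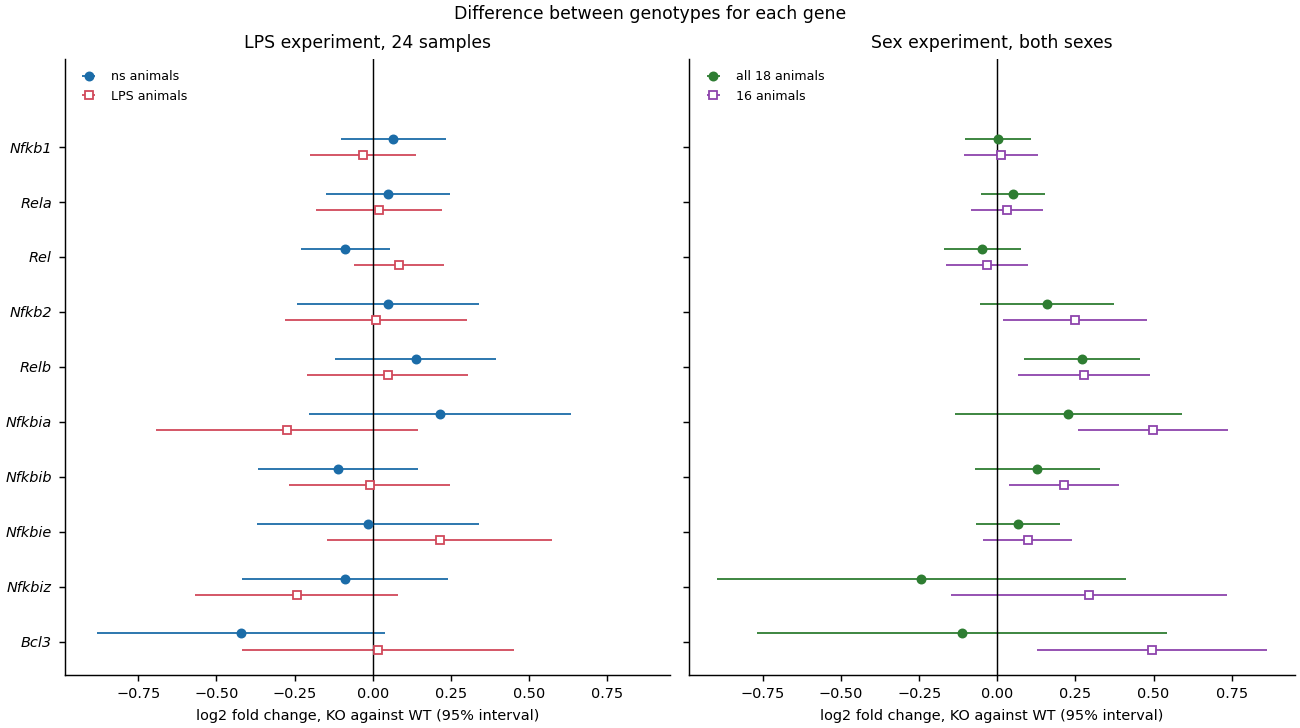
Log2 fold change of KO against WT for each gene with its 95% interval. On the left are ns and LPS libraries of the 24 samples, and on the right both sexes of the sex experiment, for all 18 animals and for the 16 without the 2 highest in neutrophil markers. Every interval on the left includes 0, and in the 16 animals those of Nfkbia, Bcl3, Nfkbib, Relb and Nfkb2 lie above 0, of which Nfkbia alone was called.

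The sex experiment asked for the same genotype difference without LPS, in each sex. Its table counts reads over whole gene spans with introns, so its CPM are not set beside those of the LPS experiment. Reads of overlapping genes can add to a span, and the genes that overlap Nfkb2, 4833438C02Rik and Psd, held counts equal to 45.7% of its own. For Bcl3 and Nfkbib the shares were 11.8% (Gm16174) and 3.45% (Ccer2), and the other 7 members had no overlapping gene. Of the 18 animals, 2 WT stood apart in neutrophil markers, male WT 5 with a sum of 49750 CPM and female WT 2 with 29980 CPM, against at most 8547 CPM in the other 16. Their monocyte sums, 4765 and 2795 CPM, were the highest as well, and the part of those cells in the values below was not tested.

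No member was called between genotypes over the 18 animals. Over both sexes 0 of 10 were called by edgeR's quasi-likelihood test and 0 by DESeq2, 1 had an unadjusted p under 0.05 (Relb), and 0.432% of all genes were called. In males 0 of 10 were called (0.00946% of all genes, 1 member with an unadjusted p under 0.05, Relb), and in females 0 of 10 (0.164% of all genes, 2 members with an unadjusted p under 0.05, Nfkbia and Nfkbib). For the difference between the sexes 0 of 10 and 0% of all genes were called, 879 genes having an unadjusted p under 0.05.

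Relb stood at 28.7, 22.7, 23.3 and 26.9 CPM in the 4 male WT and at 31.6, 31.3, 23.1, 31.2 and 37.4 CPM in the 5 male KO. It stood at 23.4, 23.2, 27.1 and 22.5 CPM in female WT and at 24.4, 34.1, 27.2, 32.9 and 24.99 CPM in female KO. KO animals were higher in the median of both sexes, but the groups overlapped, and the difference was 0.27 ± 0.09 over both sexes (SE, log2, adjusted p = 0.337).

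Nfkbia stood at 92.9, 79.1, 86.9 and 189.8 CPM in male WT and at 109, 103, 113, 92.5 and 119 CPM in male KO. It stood at 91.4, 147, 111 and 98.1 CPM in female WT and at 109, 176, 135, 191 and 192 CPM in female KO. The highest WT value of each sex belonged to the animal with the high neutrophil sum, and the groups overlapped. The difference was -0.07 ± 0.24 in males (SE, log2, adjusted p = 0.997) and 0.52 ± 0.24 in females (adjusted p = 0.947).

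Nfkbib stood at 17.4, 18.2, 16.6 and 26.5 CPM in male WT and at 20.0, 19.0, 16.3, 16.6 and 21.5 CPM in male KO. It stood at 18.1, 18.9, 22.6 and 18.3 CPM in female WT and at 19.7, 26.3, 22.1, 28.1 and 26.1 CPM in female KO, a difference of 0.33 ± 0.14 (SE, log2, adjusted p = 0.782). In females 3 of the 5 KO animals were above every WT animal, and in males male WT 5 was above every KO animal.

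Among WT animals of each sex, Nfkbiz and Bcl3 were highest in male WT 5 and female WT 2. Nfkbiz stood at 107, 92.2, 87.1 and 395 CPM in male WT, 141, 92.0, 107, 85.5 and 136 CPM in male KO, 121, 255, 174 and 159 CPM in female WT, and 104, 148, 189, 250.4 and 269 CPM in female KO. Bcl3 stood at 5.08, 5.65, 5.05 and 11.8 CPM in male WT, 5.75, 6.45, 4.23, 5.83 and 7.25 CPM in male KO, 3.62, 15.1, 4.43 and 3.13 CPM in female WT, and 3.89, 7.18, 4.61, 10.4 and 6.70 CPM in female KO. Both had wide intervals over both sexes (Nfkbiz -0.24 ± 0.31, Bcl3 -0.11 ± 0.31, SE, log2). The other subunits and Nfkbie varied little between the 18 animals, Nfkb1 from 253 to 305 CPM, Rela from 77.4 to 99.5, Rel from 88.0 to 115, Nfkb2 from 28.4 to 46.9 and Nfkbie from 27.7 to 39.0. Their differences over both sexes lay between -0.05 (Rel) and 0.16 (Nfkb2).

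**Figure D5:**
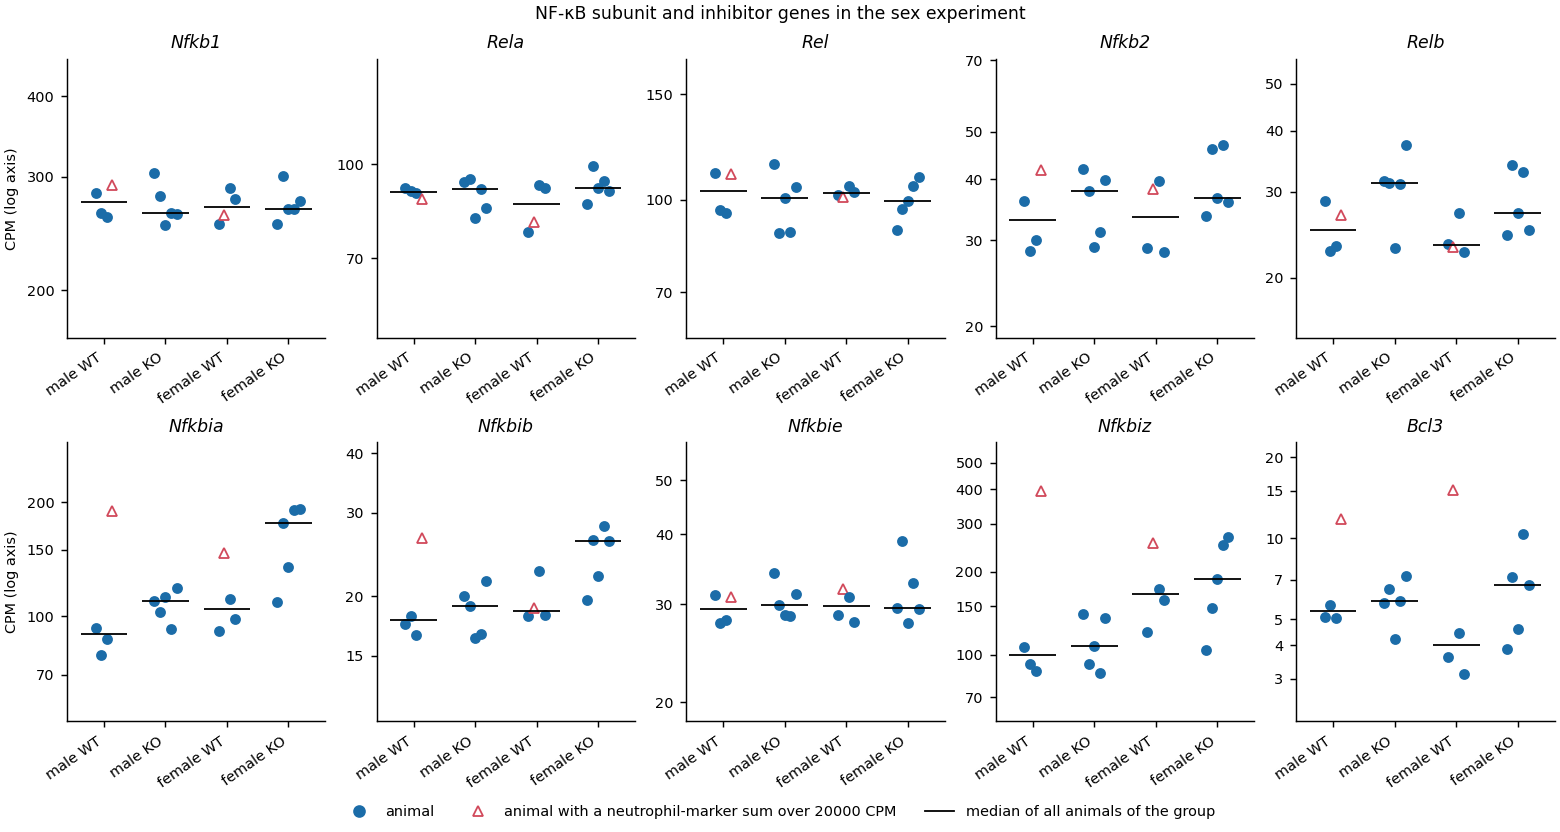
CPM (log axis) of each gene in the 18 animals of the sex experiment. Points are animals, open triangles are male WT 5 and female WT 2, whose neutrophil-marker sums exceed those of the other animals, and bars are medians of all animals of the group. Both triangles are the highest WT values of their sex for Nfkbia, Nfkbiz and Bcl3.

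Without male WT 5 and female WT 2, Nfkbia was called higher in KO over both sexes, by 0.50 ± 0.11 (SE, log2, 1.41-fold, adjusted p = 0.0492), with a 95% interval of 0.26 to 0.74. It was the only 1 of the 10 called, where 0.969% of all genes were. RLE scaling gave 0.49 (adjusted p = 0.038) and DESeq2 0.49 (adjusted p = 0.000443). The difference was 0.68 ± 0.16 in females (adjusted p = 0.091) and 0.32 ± 0.16 in males (adjusted p = 1), and the difference between the sexes was not called (0.37 ± 0.22, adjusted p = 1). In this fit 9 of the 10 genes were higher in KO, 5 of them with an unadjusted p under 0.05 (Nfkbia, Bcl3, Nfkbib, Relb and Nfkb2). By sex 0 of 10 were called by edgeR, where 0.0125% of all genes were in males and 0.602% in females, and 0% were called for the difference between the sexes. In females DESeq2 called 2, Nfkbia (adjusted p = 0.000896) and Bcl3 (0.80 ± 0.24 SE, log2, adjusted p = 0.0467). These 2 animals were left out after their values were seen, and both are WT. Among the 16 animals the summed level of 22 genes known to be raised by tissue dissociation, such as Fos, ran from 7846 to 12240 CPM in female KO, 7695 to 9130 in female WT, 5694 to 8712 in male KO and 7118 to 8085 in male WT. Neutrophil-marker sums ran from 2511 to 6260 CPM in female KO and 1472 to 3263 in female WT, and from 3010 to 4749 in male KO and 2645 to 8547 in male WT. In females the median log2 fold change of KO against WT was 0.93 for the 10 neutrophil, 0.78 for the 8 monocyte and 1.13 for the 6 T and NK cell markers, and in males it was -0.37, -0.11 and -0.28, with none of these markers called. The part of these genes and cells in the Nfkbia difference was not tested.

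The rest of the pathway was read from lists chosen from textbook knowledge with earlier results of these data known. Of 25 genes for IκB kinases, their upstream kinases and adaptors, 5 rose and 3 fell after LPS in WT, and in KO 7 rose and 2 fell. Of all genes 30.7% were called in either direction in WT and 28.5% in KO, and 15.5% and 14.4% were called higher. The median log2 fold change of this list was 0.04 in WT and 0.09 in KO, near that of all genes. With the 24 samples 9 rose and 7 fell in WT, and in KO 11 rose and 6 fell, beside the larger share of all genes called there. That share was 26.3% higher in each genotype, and 27.8% lower in WT and 28.4% in KO. The kinases of the core complex, Chuk and Ikbkb, and its scaffold Ikbkg were not called in either genotype (log2 fold changes -0.08 to 0.31), nor was Map3k14, the kinase of the non-canonical branch (WT -0.46 ± 0.49 SE, KO 0.03 ± 0.42). On the 24 samples Map3k14 fell in WT by 0.24 ± 0.08 (SE, log2, adjusted p = 0.0138).

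Of this list the largest called changes in KO were those of Ikbke, Map3k8 and Traf1. Ikbke, an inducible IκB kinase relative, rose from a median of 7.12 CPM in WT ns to 297 CPM in WT LPS, by 4.43 ± 0.59 (SE, log2, adjusted p = 2.1e-06), and from 3.46 to 227 CPM in KO, by 5.40 ± 0.54 (adjusted p = 1.64e-08). Map3k8, a kinase bound and held by the Nfkb1 precursor, rose from 22.98 to 89.4 CPM in WT and from 23.95 to 90.0 CPM in KO, by 2.04 and 2.05. Traf1, a receptor adaptor and also on the target list, rose by 1.21 and 1.203. Traf1 was also the pathway gene called between genotypes on the 24 samples, lower in KO by 0.89 ± 0.16 in ns libraries (SE, log2, adjusted p = 0.0079) and by 0.97 ± 0.15 in LPS libraries (adjusted p = 0.00357). Its medians were 3.98 CPM in WT ns, 2.03 in KO ns, 8.48 in WT LPS and 4.61 in KO LPS. On the 28 samples the differences were -1.08 ± 0.25 in ns libraries (SE, log2, adjusted p = 0.135) and -1.08 ± 0.24 in LPS libraries (adjusted p = 0.108). In the sex experiment Traf1 had the opposite sign without being called, 0.33 ± 0.20 over both sexes (SE, log2, adjusted p = 0.705) and 0.46 ± 0.23 in the 16 animals (adjusted p = 0.754). Traf1 is singled out here after its values were seen.

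Of 17 ubiquitin-editing genes, 5 rose and 0 fell in WT, and in KO 7 rose and 1 fell. Of all genes 15.5% were called higher in WT and 14.4% in KO. In the 24 samples 11 rose and 2 fell in WT, and in KO 10 rose and 2 fell. There 26.3% of all genes were called higher in each genotype, and 27.8% lower in WT and 28.4% in KO. Tnfaip3, which encodes the deubiquitinase A20 and is itself induced by NF-κB, rose from a median of 73.3 to 333.5 CPM in WT, by 2.28 ± 0.22 (SE, log2, adjusted p = 1.39e-08), and from 75.7 to 289 CPM in KO, by 2.00 ± 0.19 (adjusted p = 6.5e-09). Tnip3 rose by 2.27 in WT and 1.48 in KO, but its level was low. Its median went from 0.631 to 1.97 CPM in WT and from 0.472 to 0.881 CPM in KO, with overlapping ranges, and the highest WT LPS library stood at 12.9 CPM. Zc3h12a, an RNA-degrading brake on cytokine messages, rose by 1.45 and 1.67. Cyld, another deubiquitinase, was not called (WT -0.09 ± 0.18, KO 0.09 ± 0.15, SE, log2). Of 14 further IκB-like and nuclear partners 1 was called higher and 1 lower in each genotype, Nkrf, a repressor (0.86 in WT, 0.56 in KO), and Akirin2, which fell by 0.73 in WT and by 0.98 in KO. From this list 4 rose and 4 fell in WT on the 24 samples, and in KO 3 rose and 4 fell. The called share of these partners was under that of all genes on the 28 samples (30.7% in WT, 28.5% in KO) and near it on the 24.

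Of 40 textbook target genes 37 were tested in the LPS experiment, and 25 rose and 0 fell in WT, and in KO 26 rose and 1 fell. Beside them, 15.5% of all genes were called higher in WT and 14.4% in KO, and 26.3% in each on the 24 samples. The median log2 fold change of the targets was 2.03 in WT and 1.39 in KO, and 1.30 and 1.15 on the 24 samples, where 29 rose and 3 fell in WT and 30 rose and 2 fell in KO. Tnf rose from a median of 4.56 to 114 CPM in WT, by 4.86 ± 0.45 (SE, log2, adjusted p = 9.11e-09), and from 4.32 to 76.7 CPM in KO, by 4.24 ± 0.38 (adjusted p = 2.87e-09). Nos2 and Il12b were near 0 in ns libraries (at most 0.31 CPM for Nos2 and 0.38 for Il12b) and reached medians of 7.27 and 4.24 CPM in WT LPS and 7.65 and 2.62 CPM in KO LPS. On the 28 samples no target was called between genotypes. Over both sexes of the sex experiment 2 of the 40 targets were called higher in KO, where 0.432% of all genes were called. They were Ccl3 (0.58 ± 0.12, adjusted p = 0.0431) and Cd83 (0.42 ± 0.09, adjusted p = 0.0331), named here because the count is small. Without male WT 5 and female WT 2 they stood at 0.62 ± 0.15 (adjusted p = 0.0768) and 0.34 ± 0.08 (adjusted p = 0.0619), no longer called. In the LPS experiment neither was called between genotypes. KO LPS against WT LPS, Ccl3 was -2.36 ± 0.65 (SE, log2) on the 28 samples and -0.91 ± 0.35 on the 24. Cd83 was -0.69 ± 0.52 and 0.58 ± 0.21. KO ns against WT ns, both were higher in KO in each fit. After LPS the median of Cd83 fell from 88.7 to 35.1 CPM in WT and from 105 to 61.0 CPM in KO (24 samples). Rps3, of the nuclear partners, went over both sexes from 0.30 ± 0.07 (SE, log2, adjusted p = 0.0821) to 0.40 ± 0.06 (adjusted p = 0.000883) without those 2 animals. There 0.969% of all genes were called. By sex Rps3 was called in females (0.53 ± 0.09, adjusted p = 0.00208) and not in males (0.27 ± 0.09, adjusted p = 0.675).

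The genes most like each member across samples were taken by Pearson correlation of log2 CPM over the 28 samples, which share LPS, library set and the libraries that stand apart. For Nfkbiz they were Tnf (0.97), Gch1 (0.96) and C5ar1 (0.96), and for Nfkbia they were Rnf149 (0.96), Slc31a2 (0.96) and Gm15832 (0.96). For Bcl3 they were Mmp14, Sema6b and Ccdc86 (each 0.97), for Nfkb2 Thop1, Rbpms and Cenpb (each 0.97), and for Relb Rnf19b (0.97), Thop1 (0.96) and Junb (0.96). Nfkb1 was most like Dhx30, Zfp384 and Mon1b (each 0.97), Rela like Rnf220, Patz1 and Gnl1 (each 0.99), and Rel like Zfp445 (0.90), Rbm41 (0.89) and Ckap5 (0.87). Nfkbib was most like Slc52a2, Tmem161a and Ddx28 (each 0.94), and Nfkbie like Orai2, Stat6 and Opa3 (0.95 to 0.96).

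These neighbours changed with the samples used. Over the 24 samples Nfkbia was most like Tnfaip3 (0.99), Cd14 and Gde1 (both 0.97), Nfkb2 like Icam1 (0.98), Myd88 and Mvp (both 0.97), and Relb like Icam1 (0.97). Nfkbiz was most like Itga5, Tnf and Clec4a1 (each 0.98). Tnf for Nfkbiz and Orai2 for Nfkbie were the only genes among the 3 nearest in both sets of samples. Within groups and library sets of the 24 samples, Relb and Nfkbie were the pair of members that varied most alike (0.87), followed by Rela and Nfkbib (0.87), and Rel and Rela had the lowest value (-0.38). These correlations describe 24 samples and carry no test.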

How the data were processed

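RNA of CD11b-positive brain cells was sequenced in bulk, and the authors deposited 2 tables of read counts per gene, 1 for each experiment. FastQC, STAR 2.6.1, Subread, featureCounts, DESeq2 and GRCm39 are named in the submitters' processing notes, without their roles. Samples were grouped by their labels. Of 57 libraries listed, 6 repeat libraries had no column and were not analysed here. From the deposited counts, edgeR 4.0.16 (R 4.3.3) with TMM scaling gave CPM and the quasi-likelihood test, with Benjamini-Hochberg adjustment over all genes that passed its filter on low counts (16088 and 31709). All groups of an experiment entered 1 fit, with the library set as a covariate in the LPS experiment. A library stood apart where its correlation with the median profile of the experiment (log2 of CPM plus 1) was under 0.9. The 10 members, the pathway lists and the rules were chosen with earlier results of these data known. Named beside the members are the 3 called genes of each list with the largest change in KO after LPS, plus Chuk, Ikbkb, Ikbkg, Map3k14, Tnfaip3 and Cyld. Log2 CPM for correlations used a prior count of 2. The scripts were tested on simulated data.

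Alternatives were RLE scaling, DESeq2 1.42.0, no filter or a filter of 5 CPM, only the groups compared, no set covariate, the near-identical pair kept as 2 samples, number 2 left out of all groups, a replicate block, each set alone, all libraries as labelled and leaving out each library. Leaving out the libraries that stand apart and the 2 animals highest in neutrophil markers, each also with RLE and DESeq2, and set 2 without the libraries that stand apart were chosen after seeing the data. Counting error is small at these depths, so the spread between libraries sets the precision, and the biological coefficient of variation was 40.1% over the 28 samples, 22.7% over the 24 and 35.3% in the sex experiment. Promoters came from RefSeq, and exon lengths from GENCODE M21, which held 93.3% of the symbols of the LPS table.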

Additional observations from a re-analysis of the deposited data

Results flagged for a closer look

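In groups of 4 to 8 libraries, 18 of 80 group and gene combinations held a library far from the others by Dixon's criterion, which chance alone meets in about 1 in 20. Values are CPM.

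In the LPS experiment KO LPS 5 was set apart for 7 genes. Nfkb1 stood there at 57.57 (others 227.8 to 331.1), Nfkb2 at 12.12 (92.14 to 156.1), Rel at 159 (75.8 to 91.2), Rela at 9.729 (112.4 to 134.5), Relb at 6.017 (53.07 to 76.16), Nfkbib at 8.492 (28.8 to 37.92) and Bcl3 at 2.518 (49.7 to 81.2). WT LPS 7 was set apart for Nfkb1 at 158.8 (261.7 to 321.5), Rela at 41.08 (102.6 to 133.6) and Nfkbib at 71.97 (26.67 to 41.82), and KO ns 5 for Nfkbib at 7.623 (19.55 to 22.3). These 3 libraries are among those that stand apart in their whole profile. WT ns 4, which does not, was high for Nfkb2 at 67.16 (38.55 to 48.78) and for Nfkbib at 32.78 (18.78 to 22.16). It was the deepest library of the experiment (168.4 M counts). The correlation of its deviation from the group median with G and C content was 0.711, the highest of the libraries that do not stand apart.

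In the sex experiment male WT 5 was high for Nfkbia at 189.8 (79.08 to 92.93), Nfkbib at 26.5 (16.57 to 18.2), Nfkbiz at 395.3 (87.13 to 106.6) and Bcl3 at 11.77 (5.045 to 5.646). Female WT 2 was high for Bcl3 at 15.11 (3.128 to 4.433).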

How the results depend on the processing

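The counts of members called after LPS (6 in WT, 6 in KO) moved by over 1.5 times with set 2 alone (2 in WT, 3 in KO) and with all libraries as labelled (0 in WT). Leaving out each library in turn gave 5 to 6 in WT, 5 to 7 in KO and 0 to 0 in the other 7 comparisons. Without the 2 animals highest in neutrophil markers 1 member was called over both sexes, also 1 with RLE scaling and 1 with DESeq2, and DESeq2 called 2 in females. Rel in KO after LPS turned from 0.03 to -0.17 without the libraries that stand apart (-0.16 with RLE scaling and -0.16 with DESeq2), and Bcl3 in females from 0.00 to 0.80 without the 2 animals with DESeq2; the cause was not tested. Same-numbered samples deviated together somewhat more than others on average (mean r 0.20 against 0.10 in the LPS experiment, 0.13 against -0.03 in the sex experiment) but not in every pair (-0.23 to 0.79 and -0.05 to 0.35), so the numbers were not taken to pair the samples. With the replicate block 6 members were called in WT and 6 in KO after LPS, and 0 in each of the other comparisons. Of the other values for single members 2900 stayed on their side of the threshold or within their spread, 282 moved, 46 lost a call and 18 gained one.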
